A study of Rattus norvegicus with 6 samples.

Results

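The *Mcm2* to *Mcm7* helicase genes, with *Mcm10*, *Cdc6*, *Cdt1* and *Gmnn*, are the 10 genes described here, out of 27103 genes that carry a name of their own on the array. They were taken by name: a spot belonged to a gene when the gene name in the array files equalled 1 of the 10 symbols. All 10 were found, on 16 of the 45598 probes. The study compared replicating with quiescent β-cells, the insulin-producing cells of the pancreatic islet, in 3 islet preparations, each pooled from 4 rats. The islets came from young adult male Wistar rats and were cultured overnight at low glucose with EdU, a thymidine analogue that marks cells which made DNA during the culture. The dispersed cells of both groups were labelled with the zinc dye Newport Green, fixed and permeabilized, and sorted as large, granular and green. Those with EdU were the replicating cells and those without it the quiescent cells. Each preparation gave 1 sample of either kind, 6 arrays in all. Both groups thus shared animals, culture, fixation and whole transcriptome amplification, and were separated by the EdU gate. They also differed in size, since the paper reports far fewer cells and much less RNA from the replicating fraction. The part of this in the ratios was not tested. Every value is a log2 intensity after normexp background correction and quantile normalization, and every ratio is replicating over quiescent on the log2 scale.

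Licensing is the step in which a cell prepares its origins of replication in G1. The origin recognition complex, with *Cdc6* and *Cdt1*, loads the ring of the MCM2 to MCM7 proteins onto DNA, where it waits as an inactive helicase. In S phase kinases and further factors, *Mcm10* among them, turn the loaded rings into moving helicases, while geminin, the product of *Gmnn*, binds Cdt1 and blocks a fresh round of loading until mitosis is over. Many of these genes are classical targets of the E2F transcription factors, and MCM proteins are in common use as marks of proliferating cells.

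The promoters of these genes are shown first, as a description of their letters. A link between these letters and the ratios was not tested. RefSeq promoters of the assembly GRCr8, from 250 bases before to 50 bases after a transcript start, were at hand for 8 of the 10 genes, all but *Mcm4* and *Cdc6*. The 8-letter forms TTTCCCGC, TTTCGCGC, TTTGCCGC and TTTGGCGC of the E2F motif were searched on both strands, with overlapping matches allowed. A match was present in 7 of the 8 promoters, against 2.14% of all 33469 promoters and 2.74% of the 21851 promoters of protein-coding genes. It was present in 14 of 37 promoters of the other origin genes described further on. Each window below has 30 bases, written 5′ to 3′ along the gene, with the matched letters in capitals.
*Mcm2*, chr4:122918088-122918117, minus strand: tgacccggtTTTCGCGCGAAAacccgtggc
*Mcm3*, chr9:30733724-30733753, minus strand: gGCGGGAAAacttgggaagtTTTCGCGCca
*Mcm5*, upstream match, chr19:13488591-13488620, plus strand: gctcagaagTTTCGCGCCAAAacgtcccgc
*Mcm5*, match at the start, chr19:13488794-13488823, plus strand: ccaggttggttTTTCCCGCgaaagtcggct
*Mcm6*, chr13:42404471-42404500, minus strand: gcgtctgctTTTGGCGCGAAAttagcgtgt
*Mcm7*, match near the start, chr12:22163212-22163241, minus strand: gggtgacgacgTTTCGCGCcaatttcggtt
*Cdt1*, first match, chr19:67529245-67529274, plus strand: ccgcgaaaattGCGCGAAAtccgcgggaag
*Gmnn*, chr17:40729854-40729883, plus strand: tctgcaggttcgggtcgtTTTGGCGCggtt

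In *Mcm2*, *Mcm6* and the upstream match of *Mcm5*, matches on opposite strands overlapped and together made a run of 12 letters. The matches of the MCM2 to MCM7 genes lay between -233 and 21, counted from the transcript start as 1 with no position 0, while those of *Cdt1* and *Gmnn* all lay after the start. *Mcm7* and *Cdt1* each held a further match not printed above. *Mcm10* had no match in its window, which says only that these letters are not there. The CCAAT box, the letters CCAAT on either strand, was present in 6 of the 8 promoters against 37.5% of all promoters. *Mcm3*, *Mcm5* and *Mcm7* each held 3 of them, *Mcm6* and *Mcm10* 2 each, and *Gmnn* 1. In *Mcm7* the last letter of an E2F match was the first letter of a CCAAT box. A match is a description of letters, not of a bound site.

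**Figure D1:**
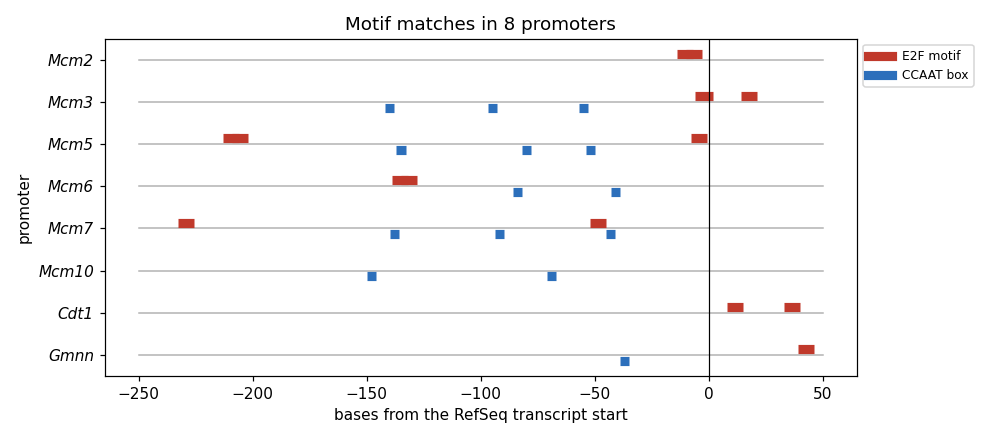
Positions of E2F motif matches (red) and CCAAT boxes (blue) in the 8 promoters, from 250 bases before to 50 bases after the RefSeq transcript start (vertical line). Red marks appear in every row but *Mcm10*, and those of *Cdt1* and *Gmnn* lie to the right of the start.

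The arrays differed in quality. Between 80.8% and 98.4% of probes were well above background on an array and no spot was saturated. Pearson's r across probes, which are not independent replicates, lay between 0.967 and 0.986 among the replicating arrays and between 0.654 and 0.867 among the quiescent ones. The quiescent array of preparation 2 stood farthest apart, with 1583 spots marked as outliers against 252 to 299 on the others, and an r of 0.654 to 0.830 with the other 5 arrays. The quiescent array of preparation 3 was closer to the replicating arrays (r from 0.943 to 0.969) than to the other quiescent arrays (0.867 and 0.654). Counts of called genes that moved by over 1.5 times without a preparation are given beside the result. A gene was called higher where its log2 ratio reached 1 and its unadjusted p did not exceed 0.05, the thresholds of the study, in limma with a term for the preparation. No probe passed an adjusted p of 0.05, with the smallest, shared by 23 probes, at 0.0977, while 4379 probes had an unadjusted p under 0.05, so that all calls here are unadjusted. Of the probes called, 2023 higher and 1905 lower, 51.5% were higher. The paper reports more genes than this at these thresholds, with a larger excess of higher ones, and the source of the difference was not tested. The share given here depended on the scaling. This share was 21.4% when arrays were scaled to the 75th percentile in place of quantile normalization and 17.2% with the processed signal of Feature Extraction.

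All 6 helicase genes, *Mcm2* to *Mcm7*, were called higher in the replicating β-cells, and so was *Gmnn*, while *Cdt1*, *Mcm10* and *Cdc6* were not. In all, 7 of the 10 genes were called higher and 0 lower, where 4.24% of all genes were called higher and 4.69% lower. The 6 helicase genes had a median log2 ratio of 2.36, with medians of 2.33, 3.27 and 1.70 in preparations 1, 2 and 3, and all genes together had a median of -0.13. Every replicating array lay above every quiescent array for 8 of the 10 genes, the 7 called and *Cdt1*, against 8.44% of all genes. Without preparation 2 this held for 9 of the 10, against 15.4% of all genes. It held for 8 of the 10 without preparation 1, against 12.7%, and for 8 without preparation 3, against 26.6%. Without preparation 1 the count of members called was 4 (*Mcm3*, *Mcm5*, *Mcm6* and *Mcm7*), with 1.24% of all genes called higher. Without preparation 2 it was 5, those genes and *Gmnn*, against 3.32%. Without preparation 3 it was 7 against 10.6%. Fewer cells with a transcript and less of it per cell cannot be told apart in sorted pools.

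**Figure D2:**
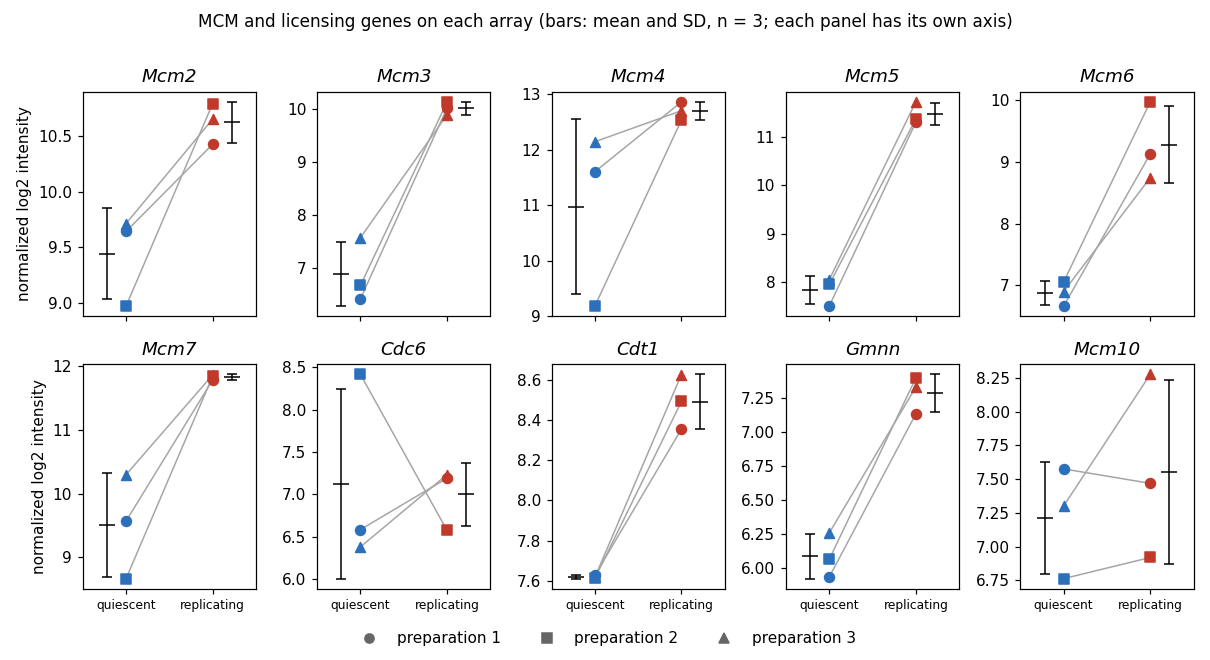
Normalized log2 intensity of the brightest probe of each gene on the 6 arrays, quiescent in blue and replicating in red, with grey lines joining the samples of a preparation and black bars for mean and SD (n = 3). The groups overlap only for *Cdc6* and *Mcm10*, and each panel has its own vertical axis.

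*Mcm5*, which lies beside *Mcm2* at the gate through which the ring opens, had the largest ratio in the values reported. Its brightest probe read, in preparations 1, 2 and 3 in turn, 11.30, 11.37 and 11.72 in replicating cells and 7.51, 7.96 and 8.06 on the quiescent arrays. The groups were far apart, and the ratios of 3.79, 3.41 and 3.66 were alike in the preparations. Its log2 ratio came to 3.62 ± 0.31 (SE), a 12.3-fold difference, with an unadjusted p of 6.63e-05 and an adjusted p of 0.109 from limma. A further probe of *Mcm5* gave 3.92 (standard error 0.31), with 3.82, 4.20 and 3.74, and an adjusted p of 0.0977 from limma, which 23 probes shared. By unadjusted p the probe was number 20 of all probes.

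*Mcm3*, the partner of *Mcm5* in the ring, read 10.02, 10.13 and 9.89 on the replicating arrays and 6.41, 6.67 and 7.57 on the quiescent arrays. The quiescent array of preparation 3 was the highest of its group, and the ratio there was the smallest, 2.32 against 3.61 and 3.46. The log2 ratio came to 3.13 ± 0.39 (SE), a 8.76-fold difference, with an unadjusted p of 0.000442 and an adjusted p of 0.188 from limma. The ratio was 4.11 with normexp at an offset of 0 and 2.87 with 75th percentile scaling.

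*Mcm6* and *Mcm7*, which with *Mcm4* form the core that holds helicase activity, followed. *Mcm6* read 9.12, 9.96 and 8.74 on the replicating and 6.67, 7.06 and 6.90 on the quiescent arrays. It was the helicase gene whose replicating arrays varied more than its quiescent ones, with SDs of 0.63 and 0.20. Its log2 ratio came to 2.40 ± 0.36 (SE), a 5.28-fold difference, with an unadjusted p of 0.000994 and an adjusted p of 0.267 from limma. The ratio was 3.19 with normexp at an offset of 0 and 2.00 with 75th percentile scaling. *Mcm7* read 11.78, 11.84 and 11.86 on the replicating arrays, which hardly differed, and 9.57, 8.67 and 10.30 on the quiescent arrays. Its ratios of 2.21, 3.17 and 1.56 therefore followed the quiescent values. The log2 ratio came to 2.32 ± 0.42 (SE), a 4.98-fold difference, with an unadjusted p of 0.00242 and an adjusted p of 0.387.

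*Mcm4* and *Mcm2* had the smallest ratios of the helicase. *Mcm4* read 12.86, 12.54 and 12.71 on the replicating arrays and 11.60, 9.18 and 12.15 on the quiescent arrays. The quiescent array of preparation 2 was the low one, and the ratio there was 3.36, against 1.26 and 0.56. The log2 ratio came to 1.73 ± 0.60 (SE), a 3.31-fold difference, with an unadjusted p of 0.0344 from limma. It was 0.91 without preparation 2, with an unadjusted p of 0.0645, and was not called without preparation 1 either (unadjusted p 0.0847, log2 ratio 1.96). *Mcm2*, a subunit that also binds histones, read 10.43, 10.80 and 10.66 on the replicating and 9.64, 8.97 and 9.71 on the quiescent arrays. Its log2 ratio came to 1.19 ± 0.36 (SE), a 2.27-fold difference, with 0.79, 1.83 and 0.94 in the preparations and an unadjusted p of 0.0213. The call was lost without preparation 1 (unadjusted p 0.0726, log2 ratio 1.39) and without preparation 2 (unadjusted p 0.0654, log2 ratio 0.87).

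For 5 of the 6 helicase genes, all but *Mcm6*, the quiescent arrays varied more than the replicating ones. The mean of the 6 genes was, preparation by preparation, 10.92, 11.11 and 10.93 in replicating cells and 8.57, 8.08 and 9.11 on the quiescent arrays. The replicating samples were thus alike, and the ratio differed between preparations mainly with the quiescent value. The quiescent array of preparation 3, the one nearest to the replicating arrays over all probes, had the highest helicase mean of its group. The quiescent arrays also differed more from each other over all probes, and the part of this in the helicase genes was not tested.

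The genes with several probes were not measured alike by all of them. All 16 probes but that of *Cdc6* had a log2 ratio above 0. Of the 16, 11 were called higher and 0 lower, against 4.44% and 4.18% of all probes, and 14 had an unadjusted p under 0.05, against 9.6% of all probes. Without preparation 1, 5 of the 16 were called higher, against 515 of all 44653 probes tested. Without preparation 2 it was 10, against 1447 of 45588, and without preparation 3 also 10, against 5092 of 44661. The *Mcm3* probe given above begins at base 2847 of the transcript as the array files number it. Another begins at base 264 and gave only 0.93 (standard error 0.34), with 1.01, 0.46 and 1.33 in the preparations, and was lower than the first in each of them. The array files place both on rn4, at chrX_random:418367-418426 and chrX_random:399549-399608, and do not say in which exon. RefSeq has the gene on chromosome 9 of GRCr8, where the promoter window above lies, so the rn4 placement is given only as the files have it. The first 30 bases of the former and the whole of the latter follow, to show that these are unrelated stretches.
*Mcm3*, base 2847: gagagagctttctttgcaattaggctagta
*Mcm3*, base 264: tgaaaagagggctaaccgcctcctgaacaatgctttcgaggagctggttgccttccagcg

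*Mcm4* had 4 probes. Those at bases 3177 and 3181 (chr11:87183282-87183341 and chr11:87183286-87183345 of rn4) share 56 of their 60 bases, shown in capitals in the first 30 bases of each, so they are nearly 1 measurement.
*Mcm4*, base 3177: aaggGCTAAGGATTTTTATAGCACCTGGAC
*Mcm4*, base 3181: GCTAAGGATTTTTATAGCACCTGGACttaa
*Mcm4*, base 1646: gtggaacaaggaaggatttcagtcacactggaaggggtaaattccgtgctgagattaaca

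The overlapping pair gave log2 ratios of 1.73 and 1.96, both with their highest ratio in preparation 2, at 3.36 and 4.09. The probe at base 1646 (chr11:87178352-87178411) gave 1.16 with 2.04, 0.42 and 1.02, so that preparation 2 was there the lowest. A probe at base 2894 gave 0.89 with 1.26, 0.42 and 0.99, was not well above background on the quiescent array of preparation 3 and matched a predicted transcript variant in the array files. The large difference of *Mcm4* in preparation 2 was seen by the overlapping pair and not by the other probes. In contrast the probes of *Mcm5* at bases 2988 and 1989 (chr19:14000967-14001026 and chr19:13998935-13998994) gave 3.62 and 3.92, and were nearest in preparations 1 and 3, with 3.41 and 4.20 in preparation 2. Those of *Mcm2* at bases 3170 and 2692 gave 1.19 and 1.45, with 0.79 and 1.70 in preparation 1. The latter *Mcm5* probe, with the largest ratio of the 16, has the following sequence.
*Mcm5*, base 1989: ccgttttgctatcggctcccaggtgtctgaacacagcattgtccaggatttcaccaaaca

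**Figure D3:**
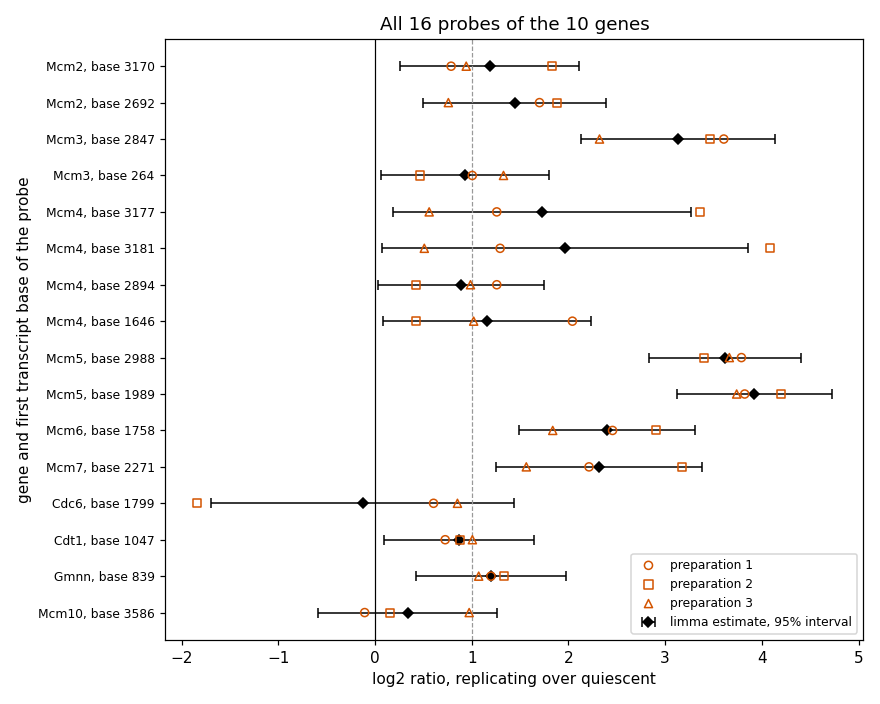
Log2 ratio of replicating over quiescent cells for each of the 16 probes, with the fitted value and its 95% interval from limma (black) and the ratio in each preparation (orange); the dashed line marks a ratio of 1. Both *Mcm5* probes lie far above the dashed line, while the *Mcm3* probe at base 264 lies well below the other.

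The loading factors were not called. *Cdt1*, which brings the ring to the origin, read 8.35, 8.49 and 8.63 on the replicating arrays and 7.63, 7.61 and 7.62 on the quiescent arrays. The groups did not overlap, and the ratios were alike in the preparations (0.73, 0.88 and 1.01). Its log2 ratio was 0.87 (standard error 0.31, 95% interval 0.09 to 1.65) with an unadjusted p of 0.0348 from limma, and it missed the call by its size. With 75th percentile scaling the ratio was 0.42, with an unadjusted p of 0.434. *Cdc6*, the ATPase that joins the origin recognition complex before the ring is loaded, read 7.19, 6.58 and 7.23 on the replicating and 6.59, 8.41 and 6.38 on the quiescent arrays. The quiescent array of preparation 2 was the highest of the 6, and the ratios were 0.61, -1.84 and 0.85. The log2 ratio was -0.13 (95% interval -1.69 to 1.44, unadjusted p 0.844) and turned to 0.73 without preparation 2, with an unadjusted p of 0.110. The probe was not well above background on 1 array of each group, and a ratio of either sign lies within this interval.

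Geminin and *Mcm10* act after loading. *Gmnn* read 7.13, 7.40 and 7.33 on the replicating and 5.93, 6.06 and 6.26 on the quiescent arrays, and the groups did not overlap. Its log2 ratio came to 1.20 ± 0.31 (SE), with an unadjusted p of 0.0104 from limma and 1.20, 1.33 and 1.07 in the preparations. Its probe cleared the background on the 3 replicating arrays but on only 1 quiescent array, that of preparation 2, so the size of this ratio is not settled. The ratio was 2.75 with normexp at an offset of 0 and 2.64 with the processed signal, and was 0.89 with 75th percentile scaling, where it was no longer called, as also without preparation 1. *Mcm10* read 7.47, 6.92 and 8.28 on the replicating and 7.58, 6.76 and 7.30 on the quiescent arrays, which overlapped. Its log2 ratio was 0.34 (95% interval -0.58 to 1.27, unadjusted p 0.390), with 0.97 in preparation 3 against -0.11 and 0.16. It was -0.10 with 75th percentile scaling and -0.44 with the processed signal.

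From the largest to the smallest ratio the order was *Mcm5*, *Mcm3*, *Mcm6*, *Mcm7*, *Mcm4*, *Gmnn*, *Mcm2*, *Cdt1*, *Mcm10* and *Cdc6*. Of the 9 pairs of neighbours, only *Mcm3* over *Mcm6* (by 0.73, SD 0.37 over the preparations) and *Cdt1* over *Mcm10* (by 0.53, SD 0.43) kept their order in all 3 preparations. Of all 45 pairs, 32 did. *Mcm5* exceeded *Mcm2* by 2.43 (SD 0.75) and *Cdt1* by 2.75 (SD 0.28). The place of *Gmnn* is not settled, since its probe was not well above background on 2 quiescent arrays and its ratio of 2.75 at an offset of 0 was above those of *Mcm7*, *Mcm4* and *Mcm2* there. At that offset *Mcm3*, at 4.11, was also above *Mcm5*, at 3.99. An exact test over 3 pairs cannot go below p = 0.25, so no order is given a p.

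**Figure D4:**
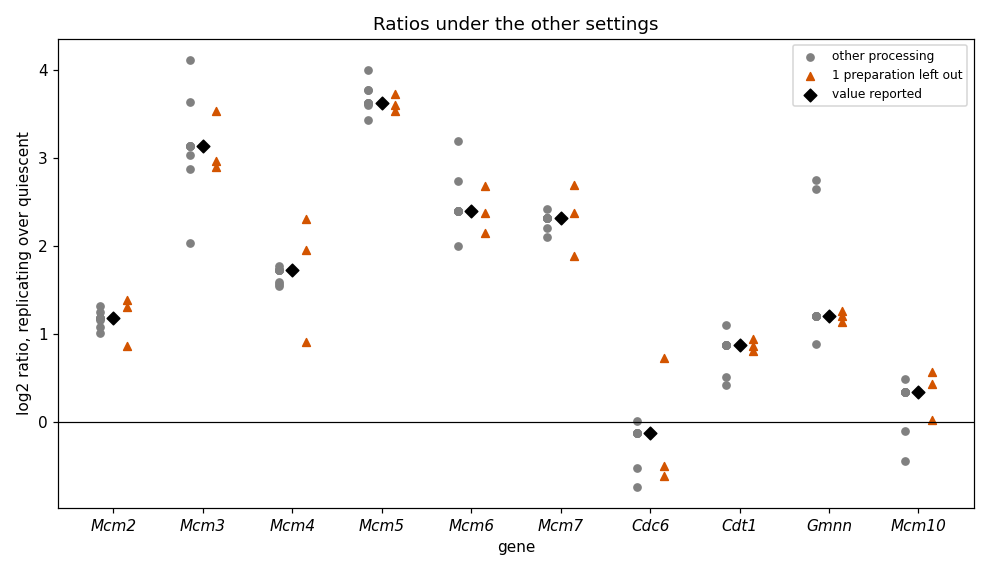
Log2 ratio of each gene as reported (black), under other processing (grey) and with a preparation left out (orange). *Mcm3*, *Mcm5*, *Mcm6* and *Mcm7* stay far above 0 throughout, whereas *Cdc6* and *Mcm10* lie on both sides of it.

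Set among the other genes that act at origins, the helicase had the highest median. The 4 lists of such genes held 38 genes on the array, of which 11 were called higher and 0 lower, with a median log2 ratio of 0.68. The count was 7 of 36 without preparation 1, 13 of 38 without preparation 2 and 12 of 36 without preparation 3. Of all genes 4.24% were called higher with all preparations, and 1.24%, 3.32% and 10.6% without preparations 1, 2 and 3 in turn. These lists and the members were chosen with earlier results of these arrays known, and the differences between lists were not tested.

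Of the 6 genes of the origin recognition complex, which marks where rings are loaded, only *Orc6* was called, and 2 were without preparation 3. It read 10.01, 10.06 and 10.37 on the replicating and 7.69, 8.04 and 9.20 on the quiescent arrays, with a log2 ratio of 1.83 (unadjusted p 0.00392). The median of the complex was 0.68, and its lowest member was *Orc1* at -0.26. *Orc2* had a log2 ratio of 1.18 that rested on preparation 2, with 0.85, 3.09 and -0.39. Of 5 further genes named for the MCM family, 0 were called, and their log2 ratios lay between -0.51 for *Mcmdc2* and 0.57 for *Mcm8*. *Mcmdc2* and *Mcm8* belong to meiosis and repair rather than to the replicative ring.

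Of 12 licensing regulators on the array, 2 were called higher, with 4 called without preparation 2 and 3 called without preparation 3. *Dtl*, the substrate receptor with which the CUL4 ubiquitin ligase destroys Cdt1 in S phase, read 10.30, 10.59 and 10.55 on the replicating and 7.11, 7.30 and 7.60 on the quiescent arrays. Its log2 ratio of 3.15 (unadjusted p 0.000129) was even in the preparations, at 3.19, 3.29 and 2.96. *Fbxo5*, also called Emi1, which restrains the anaphase-promoting complex and so spares geminin, had a log2 ratio of 1.88 (unadjusted p 0.00268). The other parts of Cdt1 turnover were not called. *Ddb1* had a ratio of 0.90 (unadjusted p 0.0538), *Skp2* 0.63 (unadjusted p 0.103) and *Cul4a* -0.89 (unadjusted p 0.0315), with all replicating arrays of *Cul4a* below the quiescent ones. The ratios of *Cul4b*, *Cul1* and *Skp1* were above 0, at 0.65, 0.91 and 0.36.

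Of 15 genes of origin firing and the early fork, 8 were called higher, with a median of 1.31, and 4 of the 14 that could be tested without preparation 1. *Cdc7*, the kinase that phosphorylates the loaded ring, read 11.69, 11.05 and 11.23 on the replicating and 7.93, 6.34 and 9.05 on the quiescent arrays, a log2 ratio of 3.55 (unadjusted p 0.00118). Its activating subunit *Dbf4* had a ratio of 2.45 (unadjusted p 0.000718). *Cdc45*, which binds the ring to form the moving helicase, had a ratio of 3.14 (unadjusted p 0.00028). Of the GINS genes, its companions in that complex, *Gins4* at 2.23, *Gins3* at 1.94 and *Gins1* at 1.31 were called, and *Gins2* at 0.91 was not. *Gins4* lacked a value on the quiescent array of preparation 2, and its ratio comes from the other preparations. *Timeless* at 2.53 and *Wdhd1*, 2.83-fold higher, both of the replication fork, completed the calls, and the lowest ratio was that of *Recql4* at -0.36.

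**Figure D5:**
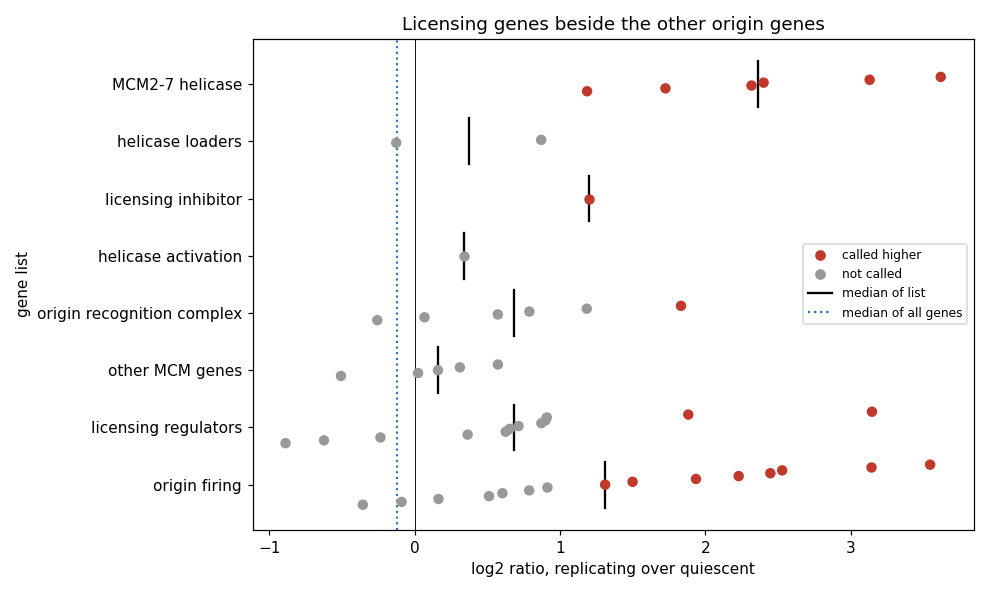
Log2 ratio of every gene of the 10 members (4 upper rows) and the 4 lists of other origin genes (4 lower rows), with called genes in red, list medians as black bars and the median of all genes as a dotted line. The helicase and the firing factors hold most of the red points, and the loaders, *Mcm10* and the genes of the origin recognition complex other than *Orc6* are grey.

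The mean of *Mcm2* to *Mcm7* over the 6 arrays was also compared with 20958 genes well above background on every array. Outside the helicase itself, the 10 genes with the highest Pearson's r were LOC103691618, *Plk1*, *Aurka*, *Kif15*, *Hmgn2*, *Serpina3n*, *Ccdc15*, *Gsg2*, *Nt5dc2* and *Cenpk*, with r from 0.996 to 0.998. *Plk1* and *Aurka* encode mitotic kinases, *Kif15* a spindle motor and *Cenpk* a centromere protein. The r of *Cdt1* with this mean was 0.955 and that of *Mcm10* 0.379. As 6 arrays in 2 groups were used, these values are a description, and any gene that separates the groups has a high r.

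Markers of the cell types the gate could hold were read on the same arrays. Beside their counts, 4.24% of all genes were called higher and 4.69% lower. The share called higher was 1.24%, 3.32% and 10.6% without preparations 1, 2 and 3 in turn. *Ins1* read 16.68 to 17.10 on the replicating and 15.92 to 17.20 on the quiescent arrays, and of 9 β-cell markers on the array 0 were called higher and 1 lower, *Mafa* at -1.01, with 2 lower without preparation 2 and 0 without preparation 1 or 3. Of 14 fibroblast and stellate cell markers 5 were called higher, and 9 without preparation 2. The collagen genes *Col6a3*, *Col3a1* and *Col1a2* had log2 ratios of 3.06, 3.04 and 2.93, above those of *Mcm2*, *Mcm4*, *Mcm6* and *Mcm7*, and *Vim* and *Mgp* had 1.89 and 1.62. The rest of the list was not called, though 13 of the 14 had a ratio above 0. *Col1a1* had 1.54, with -0.28 in preparation 2, *Pdgfrb* 0.36, *Acta2* 0.26 and *Pdgfra* 0.23, and *Tagln* was the lowest at -0.17. The list mean was 8.89 to 10.12 on the replicating and 8.16 to 8.48 on the quiescent arrays. All 7 immune markers had a ratio above 0, and 3 were called higher, *Cd74* at 1.48, *Cd68* at 1.32 and *Cd14* at 1.18, with list means of 8.39 to 9.13 and 7.90 to 8.09. Without preparation 2, 5 were called, and without preparation 1, 0. The lowest was *Ptprc*, which defines leukocytes, at 0.38, with a probe well above background on 2 of 3 quiescent arrays. Of 8 α-cell markers 2 were called, *Gcg* among them at 2.39, and 1 without preparation 1 or 2, with list means of 8.65 to 9.36 and 7.84 to 8.49. Of the δ- and PP-cell markers 2 of 4 were called higher, and 0 without preparation 1, with list means of 9.63 to 10.34 and 8.73 to 9.43. Of the acinar markers 1 of 8 was called, with 0 without preparation 1, 1 lower without preparation 3 and list means of 9.04 to 11.60 and 8.57 to 10.99, and of the duct markers 1 of 6, with 1 lower without preparation 3 and list means of 8.52 to 9.13 and 8.63 to 9.12. Of the 7 endothelial markers 0 were called, but 2 were higher and 2 lower without preparation 3, with list means of 9.13 to 9.96 and 9.21 to 9.64. No listed marker was below background on all 6 arrays. The part of other proliferating cell types in the ratios of the licensing genes was not tested.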

How the data were processed

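RNA of sorted cells was amplified by whole transcriptome amplification (Sigma WTA2), labelled with Cy3 and hybridized to 1-colour Agilent rat arrays. The authors read these with Feature Extraction 10.7.3.1, and the deposited scanner files give the mean intensity, local background, processed intensity and marks of each spot, with probe positions on rn4. The authors also deposited log2 values of each spot after normexp and quantile normalization. These were used here; normexp at an offset of 50 with quantile normalization of the scanner intensities gave the same values to within 0.000245, with a median of 8.32 on every array, so scale and spot order are settled.

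Control spots and spots marked as outliers were left out, and repeat spots were averaged per probe, leaving 45598 probes, 44652 with a value on every array. Genes were named by the array files (35852 probes, 27103 genes), and where probes of a gene differed the brightest over the 6 arrays stood for it. A probe counted as well above background on an array when at least 0.5 of its spots did.

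Every probe was fitted in limma 3.58.1 (R 4.3.3; lmFit and eBayes) with terms for preparation and group, as the study's paired test asks, and p was adjusted by Benjamini-Hochberg over all probes. Preparations pair the samples by the series' design. Across probes the deviations of paired arrays had an r of 0.0561, 0.242 and 0.258 in preparations 1, 2 and 3. Arrays of different preparations had an r of -0.312 to 0.169. The highest of these, replicating 1 with quiescent 3, was above that of the pair of preparation 1. The fit was also run on simulated data with independent noise, no preparation effect and no outlying array. As the arrays here differ in that, the run does not bear on their p-values. The number of arrays limits the precision. Standard errors and p-values of limma combine a probe's spread between the 3 preparations with a variance estimated over all probes. They are therefore not a measure of the spread of 1 gene alone, and for genes with even ratios, such as *Cdt1* and *Gmnn*, they are wider. The members, lists and alternatives were chosen with earlier results of these data known. All 10 members are named on every probe. Of the other origin lists the called genes, the extremes and some further genes are named. Likeness is Pearson's r with the mean of *Mcm2* to *Mcm7*. *Kmt5a*, *Lrwd1*, *Mcidas*, *Ticrr* and *G6pc2* were not found under these names. The qPCR and culture experiments were not analysed here.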

Additional observations from a re-analysis of the deposited data

How the results depend on the processing

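Over 12 alternatives, 104 ratios of single members kept their sign and their status as called or not called, 11 lost the call and 4 changed sign. The alternative with normexp at an offset of 50 repeats the processing of the values reported. Its ratios, which count among the 104, were therefore the same in advance. *Mcm3*, *Mcm5*, *Mcm6* and *Mcm7* were called under all 12, with log2 ratios of 2.03 to 4.11, 3.43 to 3.99, 2.00 to 3.19 and 1.89 to 2.69. *Mcm2* lost its call under 5, *Mcm4* under 4 and *Gmnn* under 2. *Cdt1* was called under none, and its unadjusted p was over 0.05 under 7 of the 12, at an offset of 0 (log2 ratio 1.11, p 0.0625 in limma) among them. *Cdc6* (-0.13 as reported) turned to 0.011 with normexp at an offset of 0 and to 0.73 without preparation 2, and was -0.62 to 0.73 over the preparations left out, and *Mcm10* turned to -0.44 with the processed signal and -0.10 with 75th percentile scaling; the cause was not tested. The median of *Mcm2* to *Mcm7* lay within its spread between preparations under every alternative, though it could not move where the ratios were fixed in advance. Leaving out a preparation gave 4 to 7 members called higher, a helicase median of 2.02 to 2.69, 7 to 13 pathway genes called higher, and 515 to 5092 probes called higher and 63 to 5628 lower. The processed signal gave 662 probes higher and 3193 lower, and 75th percentile scaling 5862 lower, against 2023 and 1905 in the values reported. These scalings moved the median of all probes to -0.71 and -0.39, and relative to it the helicase median was 3.18 and 2.44, against 2.43. Without the block for the preparation (no pairing) 878 probes were called lower and *Mcm4* had an unadjusted p of 0.0592 in limma; no other member's call changed. An adjusted p under 0.05 was reached by 719 probes with 75th percentile scaling, 99 without the block, 84 without preparation 2 and 61 with a variance trend, and by 0 under the other alternatives. No count over all probes was made where a gene's probes were combined by their median, which tests genes. No depth is defined for arrays. Signal near background limits *Gmnn* and *Cdc6*. The probes of *Mcm3* and *Mcm6* were well above background on every array, but the size of their ratios also moved with the offset.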
